A study of Mus musculus with 14 samples.

Results

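The genes described here are 44 interferon-stimulated genes, chosen by symbol as well-known targets of interferon signalling and found in a table of 55487 gene identifiers from mouse bone-marrow monocytes. All 44 had enough counts to be tested, as did 14754 genes in all. The rule reads only symbols, but the list was drawn up with earlier results of these data known. They fall into 7 genes of nucleic acid sensing and signalling, 5 of the OAS family, 4 of the IFIT family, 6 of ISG15 conjugation and ADP-ribosylation, 15 other antiviral effectors and 7 interferon-inducible GTPases.

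Messenger RNA was sequenced from monocytes taken from leg bone marrow with an isolation kit and kept outside the body for 3 h. The 4 groups were monocytes labelled AhR-deficient in 20 ng/mL of mouse IL-4 (n = 3), wild-type monocytes in the same IL-4 (n = 4), monocytes labelled AhR-deficient in medium (n = 3) and wild-type monocytes in medium (n = 4). AhR is the aryl hydrocarbon receptor, a transcription factor activated by small ligands, and IL-4 is the cytokine that drives alternative activation of monocytes and macrophages through STAT6. The labels state neither the strain, age or sex of the mice, nor how the Ahr gene was disrupted. They do not say either whether a library is 1 animal or a pool, so p-values measure the spread between these libraries. The sample titles carry numbers, 4, 5 and 6 for AhR-deficient and 1, 2, 3 and 7 for wild type, and each number occurs once in IL-4 and once in medium. Values are given below in that order.

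Interferons signal through receptors that activate JAK kinases, which phosphorylate STAT proteins. STAT2 and IRF9 are parts of the complex ISGF3, which binds the interferon-stimulated response element (ISRE) in the promoters of many interferon-stimulated genes. Type II interferon acts mainly through pairs of STAT proteins at a different palindromic site, and the guanylate-binding proteins and immunity-related GTPases are among its classic targets. Monocytes keep a low level of many of these genes without any infection, which is attributed to weak, continuous type I interferon signalling.

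Several features of the libraries bear on all results below. Total counts were between 33432502 and 42885079 per library. Ahr itself was higher, not lower, under the AhR-deficient label. It had 45.2, 43.7 and 36.9 normalised counts (CPM, TMM-scaled) in AhR-deficient cells in IL-4, against 23.7, 26.3, 26.9 and 25.3 CPM in wild-type cells in IL-4. In medium it had 26.1, 21 and 15.7 CPM in AhR-deficient cells, against 11.4, 14.4, 11.9 and 14.4 CPM in wild-type cells. Ahrr, the AhR repressor and a target gene of AhR, had 6.63, 8.94 and 9.29 CPM in AhR-deficient cells, against 17.3, 17.3, 12.1 and 14.6 CPM in wild-type cells in IL-4, without overlap (log2 fold change of -0.89 ± 0.20 SE, adjusted p = 0.0438 in edgeR). In medium Ahrr lay between 4.47 and 6.39 CPM in AhR-deficient cells and between 5.01 and 8.95 CPM in wild-type cells, and it did not pass (adjusted p = 0.212). The table gives 1 count per gene, so a deleted part of Ahr cannot be seen in it, and "AhR-deficient" below is the label of the libraries. Xist, the transcript of the inactive X chromosome, lay between 987 and 1280 CPM in AhR-deficient libraries and between 0.0242 and 2.12 CPM in wild-type libraries. The sum of 4 Y-linked genes lay between 0.0 and 0.0287 CPM in AhR-deficient libraries and between 277 and 346 CPM in wild-type libraries. Genotype and sex therefore cannot be told apart in any comparison of AhR-deficient with wild-type libraries. The 8 monocyte markers (among them Csf1r, Ccr2 and Ly6c2) summed to between 6250 and 8680 CPM in every library, and the 9 T and NK cell markers to at most 4.96 CPM. Among these, Ccr2, the chemokine receptor of classical monocytes, had 477, 564 and 482 CPM in AhR-deficient cells, against 1660, 1680, 1640 and 1870 CPM in wild-type cells in IL-4. In medium it had 302, 470 and 370 CPM in AhR-deficient cells, against 1730, 1420, 1480 and 478 CPM in wild-type cells. Number 7 in medium thus stood apart from the other wild-type libraries and near the AhR-deficient ones for Ccr2, and number 7 in IL-4 did not. Results without number 7 are given below where it matters. In bulk RNA, fewer cells of a type and less RNA per cell cannot be told apart.

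The promoters of members called between the genotypes are shown first, since the ISRE is what many interferon-stimulated genes share by sequence. The RefSeq promoter table (GRCm38.p6, 250 bases before to 50 after each start) holds 34 of the 44 members. Dhx58, Ifi204, Ifi27l2a, Mx1, Oas2, Parp14, Parp9, Rtp4, Usp18 and Zbp1 are not in it. The 150 bases before the start are printed 5′ to 3′ on the gene's strand, with each match to the ISRE core (GAAANNGAAA, or the same letters on the other strand) in capitals. The lines are the 5 genes with a single promoter window among the 6 members that were higher in AhR-deficient cells in medium.
Isg15, chr4:156200819-156200968 (-): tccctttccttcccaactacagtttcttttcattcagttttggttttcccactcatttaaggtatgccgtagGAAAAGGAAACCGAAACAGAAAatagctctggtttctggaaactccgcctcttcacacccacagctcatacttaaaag
Rsad2, chr12:26456453-26456602 (-): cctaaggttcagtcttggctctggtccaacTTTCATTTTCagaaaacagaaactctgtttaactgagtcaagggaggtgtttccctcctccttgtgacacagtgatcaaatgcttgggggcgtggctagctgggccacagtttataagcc
Ifi205, chr1:174031756-174031905 (-): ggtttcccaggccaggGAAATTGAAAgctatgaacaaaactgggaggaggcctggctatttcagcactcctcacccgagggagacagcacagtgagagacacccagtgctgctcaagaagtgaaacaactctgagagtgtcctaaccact
Oasl1, chr5:114923090-114923239 (+): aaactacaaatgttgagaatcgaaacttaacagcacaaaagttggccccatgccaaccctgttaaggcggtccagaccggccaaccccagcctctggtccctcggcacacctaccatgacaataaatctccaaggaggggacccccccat
Phf11d, chr14:59365491-59365640 (-): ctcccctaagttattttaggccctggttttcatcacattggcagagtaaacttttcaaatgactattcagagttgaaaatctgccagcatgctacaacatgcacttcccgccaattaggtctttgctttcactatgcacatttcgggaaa
Within these bases Isg15 had 3 overlapping cores in a row, whereas Rsad2 and Ifi205 had 1 each and Oasl1 and Phf11d had none in these letters. No match says only that these letters are absent from the window.

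Over the whole window, 21 of the 34 members with a promoter held an ISRE core (61.8%, Wilson 95% interval 45.0 to 76.1). By promoter, the core stood in 57.5% of the 40 member windows, against 3.44% of all 32851 windows in the table. STAT palindromes were searched as well. The spacing TTCNNNGAA was in 20.0% of member windows, against 8.3% of all windows. The spacing TTCNNNNGAA, which is the one STAT6 prefers, was in 17.5% of member windows, against 6.95% of all windows. In 1 member window each, a palindrome overlapped an ISRE core. The cores of paralogues could be the same to the letter, as in the stretch below, which Ifit3 and Ifit3b share, and the first cores of Gbp7 and Irgm1 are given for the GTPases.
Ifit3, chr19:34583358-34583397 (+): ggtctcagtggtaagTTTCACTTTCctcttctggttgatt
Ifit3b, chr19:34607754-34607793 (+): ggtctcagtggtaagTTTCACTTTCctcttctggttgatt
Gbp7, chr3:142530268-142530307 (+): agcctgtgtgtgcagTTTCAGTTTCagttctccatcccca
Irgm1, chr11:48871426-48871465 (-): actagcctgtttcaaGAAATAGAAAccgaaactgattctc
Of the members called higher in AhR-deficient cells, 3 of 6 in medium and 2 of 3 in IL-4 held the core. These matches are descriptions of sequence and not measured binding sites.

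The level of the genes spanned a wide range. Per kilobase of exon, Ifi27l2a was the highest with a mean of 226.5 CPM per kb over the 14 libraries, ahead of the membrane tether Bst2 with 54.21 and the DNA sensor Ifi204 with 32.23. Ifi44 with 0.1561 and Ifit3b with 0.3385 CPM per kb were the lowest. The mean log2(CPM + 1) over the 44 genes was 4.515, 4.019 and 4.734 in AhR-deficient cells in IL-4, against 4.084, 3.986, 3.938 and 3.469 in wild-type cells in IL-4. In medium it was 4.718, 3.969 and 4.886 in AhR-deficient cells, against 3.962, 3.961, 3.905 and 4.013 in wild-type cells. Numbers 4 and 6 of the AhR-deficient cells stood above every wild-type library in both conditions. Number 5 did not, and number 7 of the wild-type cells was the lowest library of all in IL-4 but not in medium.

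**Figure D1:**
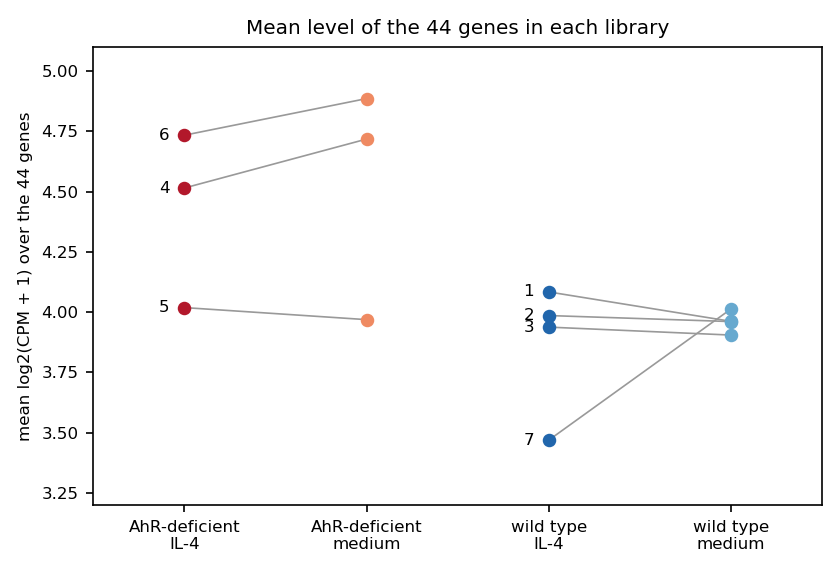
Mean log2(CPM + 1) of the 44 interferon-stimulated genes in each library (vertical axis), by genotype and condition, with a line joining the IL-4 and medium libraries of the same number and digits naming the numbers. Numbers 4 and 6 lie at 4.515 to 4.886, number 5 lies at 3.969 to 4.019 among the wild-type libraries, and number 7 is at 3.469 in IL-4.

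The split among the AhR-deficient libraries ran through the whole set. Number 5 was the lowest of the 3 AhR-deficient libraries for 44 of 44 members in IL-4 and for 44 of 44 in medium, whereas it was the lowest for 31.2% and 35.5% of all genes tested in these conditions. The median member was 1.46 times as high in number 4 as in number 5 in IL-4 and 1.8 times in medium. For number 6 over number 5 these ratios were 1.7 in IL-4 and 1.99 in medium. Ifi44 differed most, with number 6 at 4.96 times number 5 in IL-4 on low counts (122 and 25). Ifit1 was 3.3 times as high in number 4 as in number 5 in medium. Among wild-type libraries in IL-4, number 7 was the lowest for 41 of 44 members, against 24.5% of all genes. In medium it was the lowest for 3 of 44.

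Set against wild type one library at a time, number 4 lay above all 4 wild-type libraries for 38 members in IL-4 and 42 in medium, and number 6 for 40 and 42. Number 5 did so for 8 in IL-4 and 9 in medium, or 18.2% and 20.5% of the members, near its share of all genes (25.2% and 23.1%).

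**Figure D2:**
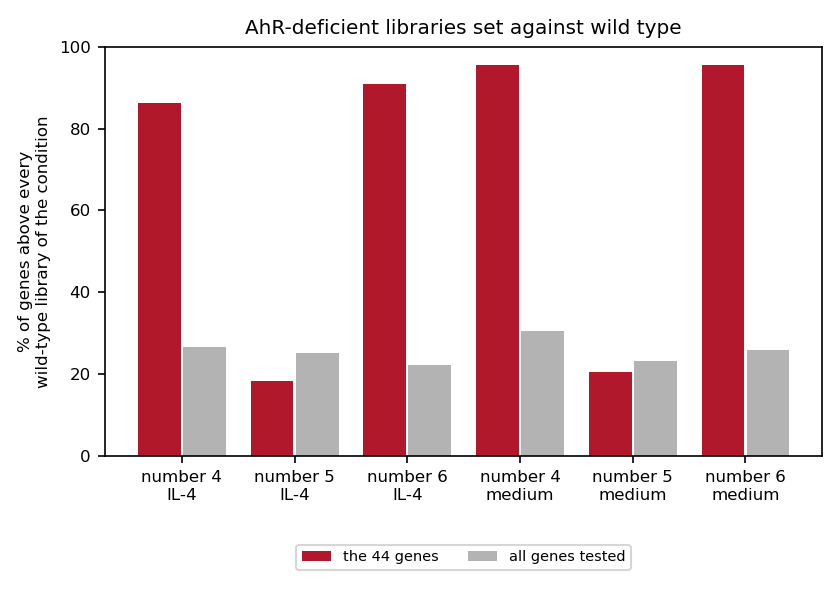
Percentage of genes whose CPM in an AhR-deficient library exceeds that of every wild-type library of the same condition (vertical axis), for the 44 interferon-stimulated genes and for all 14754 genes tested. Numbers 4 and 6 reach 86.4 to 95.5% of the 44 genes, against 22.3 to 30.4% of all genes, while number 5 stays at 18.2 and 20.5%.

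Marker genes of other cells also varied between these libraries. The 8 non-classical monocyte markers (among them Nr4a1, Cx3cr1 and Treml4) summed to 1900, 1670 and 1880 CPM in AhR-deficient cells in IL-4, against 1450, 1830, 1830 and 1370 CPM in wild-type cells in IL-4. In medium they summed to 3380, 2690 and 3320 CPM in AhR-deficient cells, against 2170, 3000, 3320 and 3050 CPM in wild-type cells. Number 5, and number 7 in IL-4, were the lowest of their groups in this list as in the interferon-stimulated genes. The 12 neutrophil markers summed to 671, 776 and 472 CPM in AhR-deficient cells in IL-4, against 1140, 1050, 612 and 987 CPM in wild-type cells in IL-4. In medium they summed to 704, 905 and 531 CPM in AhR-deficient cells, against 1300, 1200, 659 and 540 CPM in wild-type cells. Number 5 was the highest of the AhR-deficient libraries here. The 7 plasmacytoid dendritic cell markers other than Bst2, which is a member, summed to between 43.6 and 73.6 CPM over the 14 libraries, and number 6 was the lowest of the AhR-deficient libraries in both conditions. No marker of these lists was at 0 throughout. The 7 conventional dendritic cell markers summed to 234, 231 and 231 CPM in AhR-deficient cells, against 160, 197, 179 and 166 CPM in wild-type cells in IL-4, without overlap. In medium they summed to 119, 107 and 127 CPM in AhR-deficient cells, against 97.1, 119, 89.8 and 136 CPM in wild-type cells, with overlap. The part of these cells in the results was not tested.

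**Figure D3:**
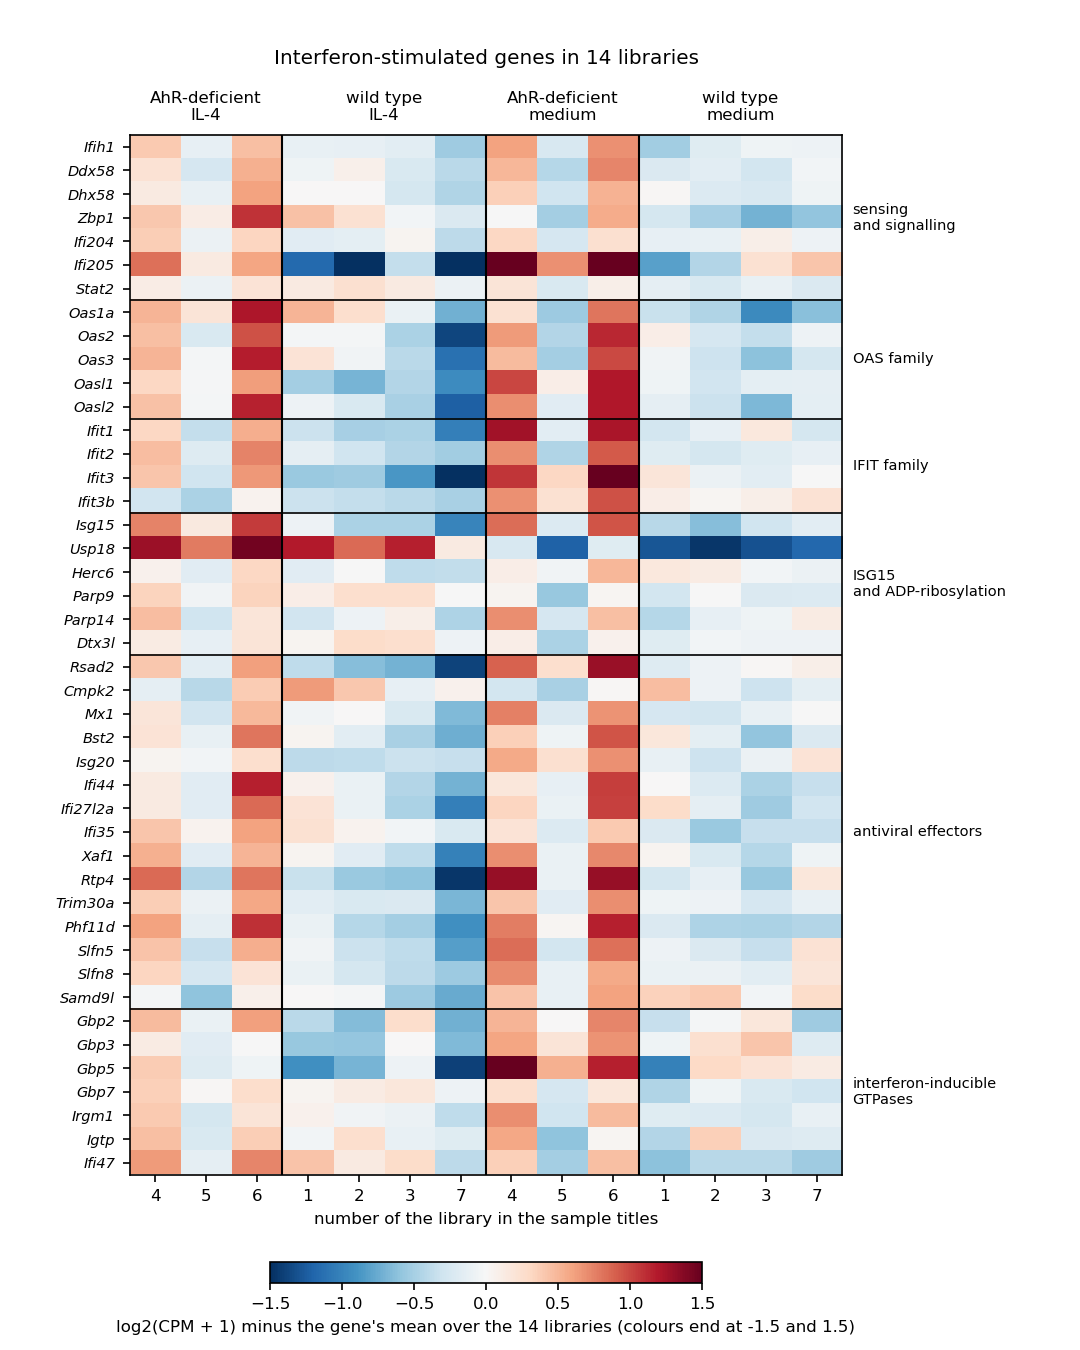
Level of each of the 44 genes (rows, grouped by role) in each of the 14 libraries (columns, with the number from the sample title), as log2(CPM + 1) minus the gene's mean over the libraries, red for above and blue for below. The columns of numbers 4 and 6 are red in nearly every row, that of number 7 in IL-4 is blue in most, and Usp18 is the row that separates IL-4 from medium.

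The first comparison asks what 3 h of IL-4 does to these genes in each genotype. Usp18 rose with IL-4 in both, and Ifit3b and Isg20 fell in both, though Isg20 passed less often when libraries were left out. In AhR-deficient cells, 1 member was higher (2.27%, against 15.4% of all genes) and 3 were lower (6.82%, against 14.2% of all genes). In wild-type cells, 5 members were higher (11.4%, against 19.4% of all genes) and 7 were lower (15.9%, against 16.5% of all genes). Calls are at an adjusted p under 0.05 in edgeR's quasi-likelihood test. The median log2 fold change of the members was -0.13 in AhR-deficient cells, against -0.009 over all genes, and -0.13 in wild-type cells, against 0.009 over all genes. These medians were not stable, since leaving out 1 library moved them between -0.39 and 0.12 in AhR-deficient cells and between -0.27 and 0.04 in wild-type cells. With the numbers as a block, which compares each IL-4 library with the medium library of its own number, more members passed. In AhR-deficient cells 5 were then higher and 10 lower (18.4% and 17.8% of all genes), and in wild-type cells 10 were higher and 12 lower (22.8% and 19.9% of all genes). The members' shares lay below or near those of all genes except for the lower calls with the block, which were 22.7% of members in AhR-deficient cells and 27.3% in wild-type cells. The wild-type share rested on number 7, which correlated no better with its own number than with another. With the block and without number 7, 12 members were higher (27.3%, against 21% of all genes) and 8 were lower (18.2%, against 18.4% of all genes) in wild-type cells. In AhR-deficient cells, which share the estimate of spread, that fit gave 8 of 44 members higher, against 20.2% of all genes. It gave 17 of 44 lower, against 19.8% of all genes, so the lower calls stood above that share.

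Usp18 encodes the protease that removes ISG15 from proteins and also blocks signalling at the type I interferon receptor. In IL-4 it had 28.8, 20.1 and 32.5 CPM in AhR-deficient cells, against 27, 21.2, 26.5 and 12.5 CPM in wild-type cells. In medium it had 9.41, 4.3 and 9.85 CPM in AhR-deficient cells, against 4.03, 3.45, 3.97 and 4.44 CPM in wild-type cells. No IL-4 library overlapped a medium library, and number 7 was the lowest IL-4 library. IL-4 over medium gave a log2 fold change of 1.79 ± 0.31 (SE, adjusted p = 0.000492) in AhR-deficient cells and a log2 fold change of 2.46 ± 0.28 (SE, adjusted p = 1.01e-05) in wild-type cells. By number, the ratio was 3.06, 4.67 and 3.3 in AhR-deficient cells and 6.71, 6.16, 6.66 and 2.81 in wild-type cells. The call stood in each of the 9 and 12 fits that left out a library or a number. The gene lies at chr6:121245906-121270917 on the plus strand of GRCm38.

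Zbp1, a sensor of Z-form nucleic acids, moved the same way. In IL-4 it had 54.7, 44.5 and 87.9 CPM in AhR-deficient cells, against 56, 48.4, 39.8 and 35.3 CPM in wild-type cells. In medium it had 41, 28.6 and 60.8 CPM in AhR-deficient cells, against 33.9, 28.7, 24.7 and 26.9 CPM in wild-type cells. It was higher in IL-4 in each of the 7 numbers, with a log2 fold change of 0.66 ± 0.24 (SE, adjusted p = 0.0455) in wild-type cells. In AhR-deficient cells it gave a log2 fold change of 0.52 ± 0.27 (SE, adjusted p = 0.179) and passed only with the block (adjusted p = 0.00018). Stat2, the interferon-specific member of ISGF3, had 56.8, 49.6 and 60.7 CPM in AhR-deficient cells, against 58, 62.4, 57.9 and 49.6 CPM in wild-type cells in IL-4. It had 60.3, 44.7 and 55.9 CPM in AhR-deficient cells, against 48, 44.8, 48.7 and 45.3 CPM in wild-type cells in medium. The rise passed in wild-type cells (log2 fold change of 0.29 ± 0.09 SE, adjusted p = 0.0263), and the AhR-deficient value was a log2 fold change of 0.05 ± 0.11 (SE, adjusted p = 0.763). The GTPases Gbp7 and Ifi47 also rose in wild-type cells, with a log2 fold change of 0.39 ± 0.14 (SE, adjusted p = 0.0459) and a log2 fold change of 0.70 ± 0.24 (SE, adjusted p = 0.039). Of the 12 wild-type fits that left out a library or a number, Zbp1, Gbp7 and Ifi47 passed in 2 each and Stat2 in 4. Parp9, Ifi35 and Oas1a passed in both genotypes only with the block, and Cmpk2 and Dtx3l only with the block in wild-type cells.

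Ifit3b, a member of the family that binds foreign RNA and stops its translation, fell the most. Its counts in IL-4 were low, at 11, 6 and 26 in AhR-deficient libraries and 11, 11, 8 and 5 in wild-type libraries. In IL-4 it had 0.316, 0.15 and 0.66 CPM in AhR-deficient cells, against 0.279, 0.249, 0.21 and 0.141 CPM in wild-type cells. In medium it had 1.57, 0.876 and 2.12 CPM in AhR-deficient cells, against 0.714, 0.634, 0.702 and 0.859 CPM in wild-type cells. The IL-4 and medium libraries did not overlap within either genotype. The log2 fold change was -2.01 ± 0.43 (SE, adjusted p = 0.00267) in AhR-deficient cells and -1.70 ± 0.40 (SE, adjusted p = 0.00441) in wild-type cells. Of its 100-base stretches, 27.4% also occur in another gene, mainly Ifit3, so reads of this pair may have been divided between them and both are uncertain. Ifit3 had 5.74, 3.12 and 6.93 CPM in AhR-deficient cells, against 2.43, 2.49, 1.76 and 0.62 CPM in wild-type cells in IL-4. It had 9.63, 5.26 and 13.7 CPM in AhR-deficient cells, against 4.74, 3.75, 3.54 and 4.04 CPM in wild-type cells in medium. It fell in wild-type cells (log2 fold change of -1.12 ± 0.38 SE, adjusted p = 0.0311), and number 7 was the lowest library. Ifit2 had 11.6, 6.99 and 14.3 CPM in AhR-deficient cells, against 7.35, 6.44, 5.75 and 5.39 CPM in wild-type cells in IL-4, and 13.9, 5.72 and 16.3 CPM in AhR-deficient cells, against 7.06, 6.61, 7.07 and 7.39 CPM in wild-type cells in medium, with no call in any IL-4 comparison.

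Isg20, an exonuclease that degrades single-stranded RNA, also fell in both. In IL-4 it had 9.04, 8.49 and 10.7 CPM in AhR-deficient cells, against 6.46, 6.49, 6.8 and 6.68 CPM in wild-type cells. In medium it had 13.5, 10.6 and 14.8 CPM in AhR-deficient cells, against 8.09, 6.92, 8.21 and 10.3 CPM in wild-type cells. The log2 fold change was -0.46 ± 0.14 (SE, adjusted p = 0.0261) in AhR-deficient cells and -0.34 ± 0.13 (SE, adjusted p = 0.0491) in wild-type cells. Isg20 passed in 3 of 9 and 2 of 12 fits that left out a library or a number, in that order. Rsad2, the antiviral enzyme viperin, fell in wild-type cells (log2 fold change of -0.77 ± 0.26 SE, adjusted p = 0.0296), as did Ifi205 of the p200 family (log2 fold change of -1.29 ± 0.44 SE, adjusted p = 0.0355), Samd9l (log2 fold change of -0.56 ± 0.20 SE, adjusted p = 0.0454) and Gbp3 (log2 fold change of -0.59 ± 0.18 SE, adjusted p = 0.0191). Gbp5 fell in AhR-deficient cells (log2 fold change of -1.24 ± 0.43 SE, adjusted p = 0.0407). Gbp3 had 14.9, 11.9 and 13.5 CPM in AhR-deficient cells, against 8.8, 8.77, 13.6 and 8.18 CPM in wild-type cells in IL-4, and 21, 15.6 and 22.2 CPM in AhR-deficient cells, against 12.9, 16.2, 18.4 and 11.7 CPM in wild-type cells in medium, and it was lower in IL-4 in every number. Its wild-type libraries in IL-4 were spread unevenly, with number 3 above the others.

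With the block the falls of Gbp3, Ifi205, Ifit1, Ifit3, Oasl1, Rsad2 and Samd9l also passed in AhR-deficient cells, with adjusted p between 0.000914 and 0.0358. In wild-type cells those of Gbp5, Herc6, Ifit1, Oasl1 and Slfn8 did, with adjusted p between 0.00483 and 0.0344. Gbp5, Ifit1, Isg20 and Slfn8 did not pass in wild-type cells with the block and without number 7.

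By number, 8 members were higher in IL-4 in all 7 numbers (18.2%, against 22.2% of all genes) and 12 were lower in all 7 (27.3%, against 19.5% of all genes). The 8 were Cmpk2, Dtx3l, Gbp7, Ifi35, Ifi47, Parp9, Usp18 and Zbp1. The 12 were Gbp3, Herc6, Ifi205, Ifit1, Ifit3, Ifit3b, Isg20, Oasl1, Rsad2, Rtp4, Samd9l and Slfn8. The numbers differed in balance. Number 7 had 10 members higher and 34 lower, and number 4 had 11 higher and 33 lower, whereas number 1 had 25 higher and 19 lower. Without number 7 in both conditions, 3 members were higher and 2 lower in wild-type cells, against 2277 and 1858 of all 14754 genes. Leaving out 1 library at a time gave 1 to 6 higher and 1 to 5 lower there. Those fits called 2521 to 2875 of all genes higher and 2125 to 2492 lower. In AhR-deficient cells such fits gave 1 to 11 lower calls, against 1684 to 1914 over all genes. The 11 came without number 5 in medium, with 1914 over all genes.

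The next comparison asks whether the genotypes differ. In IL-4, 3 members were higher in AhR-deficient cells (6.82%, against 0.956% of all genes) and 0 were lower (0.664% of all genes). In medium, 6 were higher (13.6%, against 4.16% of all genes) and 0 were lower (3.95% of all genes). The median log2 difference was 0.57 in IL-4, with 41 of 44 members above 0, against -0.008 over all genes. It was 0.65 in medium, with 43 of 44 above 0, against 0.010 over all genes. The comparisons in IL-4 and in medium use different libraries of the same numbers, so they are not independent. The difference was larger in numbers 4 and 6 than in number 5, and the calls depended on which libraries were in the fit. Without number 5 in either condition, 7 members were higher in IL-4 (0.21% of all genes) and 25 in medium (3.11% of all genes). Without number 4 or without number 6 there were 0 in each. Higher calls over all genes also fell, from 141 to 13 in IL-4 and from 614 to 37 in medium without number 4. Without number 6 they were 80 and 264. The members' median difference was 0.55 in IL-4 and 0.59 in medium without number 4, and 0.38 and 0.46 without number 6. Without number 5 it was 0.74 and 0.87. Leaving out wild-type number 1 or number 2 in both conditions also left 0 in each, and leaving out number 7 left 0 in IL-4 and 8 in medium. Over all genes, 89 and 220 were higher without number 1, 21 and 87 without number 2, and 161 and 697 without number 7. In IL-4, leaving out 1 library left 0 calls for each library other than wild-type number 3, which left 3. Those fits gave 13 to 188 higher calls over all genes. In medium, leaving out 1 library left 0 calls without AhR-deficient number 4 or 6 or wild-type number 2, 2 calls without wild-type number 1 and 24 without AhR-deficient number 5. These fits gave 58 to 641 higher calls over all genes. With the numbers as a random block in limma-voom the counts were 3 in IL-4 and 7 in medium, against 247 and 759 of all 14754 genes. Ifi205 then passed in IL-4 (adjusted p = 0.0487) and Rsad2 did not (adjusted p = 0.0503), and in medium Gbp5 (0.0356) and Ifi35 (0.0493) passed and Isg15 (0.066) did not. DESeq2's Wald test called 9 members higher in IL-4 (3.42% of all genes) and 18 in medium (7.06% of all genes).

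**Figure D4:**
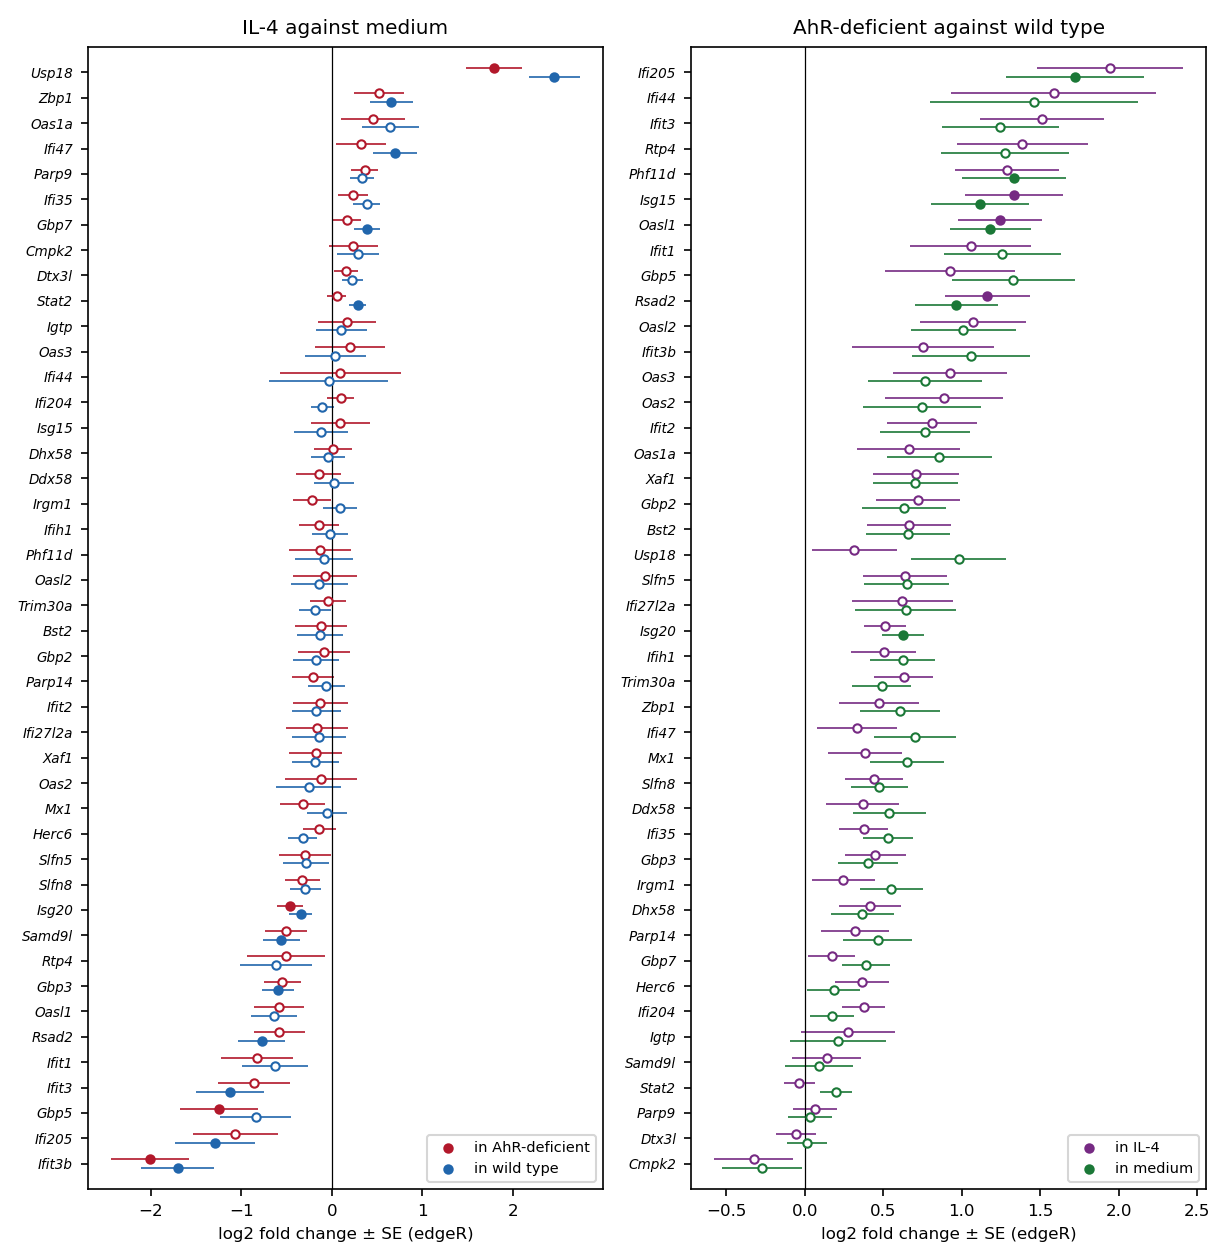
Log2 fold change ± SE from edgeR for each of the 44 genes, for IL-4 against medium (left, in AhR-deficient and in wild-type cells) and for AhR-deficient against wild type (right, in IL-4 and in medium), with filled points for an adjusted p under 0.05. On the left Usp18 (1.79 and 2.46) and Ifit3b (-2.01 and -1.70) mark the ends, and on the right 41 of 44 genes in IL-4 and 43 of 44 in medium lie above 0.

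Without an overlap of the libraries, 8 members were higher in AhR-deficient cells in IL-4 (18.2%, against 9.28% of all genes). These were Ifi205, Ifit3, Isg15, Isg20, Oasl1, Oasl2, Rsad2 and Trim30a. In medium 9 were higher without overlap (20.5%, against 10.5% of all genes), namely Gbp5, Ifi205, Ifi35, Ifit3, Ifit3b, Isg20, Oasl1, Phf11d and Rsad2. No member was lower without overlap in either condition.

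Among the sensors, Ifi205 differed most. It had 19.6, 11.8 and 16.6 CPM in AhR-deficient cells, against 4.18, 2.74, 8.12 and 1.55 CPM in wild-type cells in IL-4. It had 38.6, 17.8 and 44 CPM in AhR-deficient cells, against 5.6, 7.61, 12.7 and 14.6 CPM in wild-type cells in medium. No AhR-deficient library overlapped a wild-type library in either condition, though number 5 stood closest to wild type in both. The log2 fold change was 1.94 ± 0.46 (SE, adjusted p = 0.0537) in IL-4 and 1.72 ± 0.44 (SE, adjusted p = 0.0325) in medium. Of its 100-base stretches 15% occur in another gene of the family, mainly Ifi211, so the value is uncertain. The same holds, to a smaller degree, for Ifi204 (10.7%), Herc6 (10.3%), Gbp7 (10%) and Rtp4 (9.28%). Ifi204, also of this family, had 146.7, 106.9 and 141.7 CPM in AhR-deficient cells, against 100.7, 102.4, 117 and 85.9 CPM in wild-type cells in IL-4, and 140.5, 94.7 and 133.8 CPM in AhR-deficient cells, against 104, 104.6, 120.5 and 107.5 CPM in wild-type cells in medium, with no call. Number 5 lay within the wild-type range in IL-4 and below it in medium.

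Active enzymes of the OAS family make the messenger that activates RNase L. Oasl1 had 5.28, 4 and 6.83 CPM in AhR-deficient cells, against 2.56, 2.13, 2.73 and 1.64 CPM in wild-type cells in IL-4. It had 9.13, 4.41 and 10.6 CPM in AhR-deficient cells, against 3.83, 3.14, 3.58 and 3.61 CPM in wild-type cells in medium. Neither condition showed an overlap of the groups, with a log2 fold change of 1.24 ± 0.27 (SE, adjusted p = 0.0367) in IL-4 and a log2 fold change of 1.18 ± 0.26 (SE, adjusted p = 0.0187) in medium. Oasl2 had 53.1, 38.1 and 87.8 CPM in AhR-deficient cells, against 36.9, 33.1, 27.4 and 16 CPM in wild-type cells in IL-4. It had 63.4, 34.5 and 90.8 CPM in AhR-deficient cells, against 35.3, 30.8, 24 and 34.9 CPM in wild-type cells in medium, where number 5 lay within the wild-type range, and it did not pass in either condition (log2 fold change of 1.07 ± 0.34 SE, adjusted p = 0.116 in IL-4). Oas1a had 61.6, 49.2 and 100.9 CPM in AhR-deficient cells, against 61.6, 51.1, 39.8 and 25.7 CPM in wild-type cells in IL-4, and 50.4, 29 and 75.6 CPM in AhR-deficient cells, against 33.8, 31.1, 21.7 and 27.4 CPM in wild-type cells in medium. Oas2 had 32.2, 19.7 and 46.1 CPM in AhR-deficient cells, against 22.8, 22.9, 16.5 and 8.38 CPM in wild-type cells in IL-4, and 36.9, 17 and 52.5 CPM in AhR-deficient cells, against 25.1, 19.4, 18 and 22.1 CPM in wild-type cells in medium. Number 6 was the highest library for both genes in both conditions, and number 7 was the lowest in IL-4. Neither passed between the genotypes, and 40.9% of the 100-base stretches of Oas1a recur in another gene, mainly Oas1g.

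Isg15 is an interferon-induced, ubiquitin-like protein that is attached to many others. It had 11, 6.97 and 13.9 CPM in AhR-deficient cells, against 5.83, 4.16, 4.18 and 2.62 CPM in wild-type cells in IL-4. It had 11.8, 5.21 and 12.8 CPM in AhR-deficient cells, against 4.4, 3.61, 4.84 and 5.44 CPM in wild-type cells in medium. In IL-4 the groups did not overlap, and in medium number 5 fell within the wild-type range. The log2 fold change was 1.33 ± 0.31 (SE, adjusted p = 0.0496) in IL-4 and 1.12 ± 0.31 (SE, adjusted p = 0.0439) in medium. Usp18 missed the threshold in medium, with a log2 value of 0.98 ± 0.30 (SE). Parp14, an ADP-ribosyltransferase known as a partner of STAT6, had 146.7, 86.1 and 119.8 CPM in AhR-deficient cells, against 86.9, 100.2, 112.7 and 76.3 CPM in wild-type cells in IL-4, and 172.3, 88.7 and 145 CPM in AhR-deficient cells, against 78.2, 97.5, 101.1 and 115.5 CPM in wild-type cells in medium. Dtx3l, the partner of Parp9, had 69.7, 58.6 and 73.2 CPM in AhR-deficient cells, against 65.8, 77.1, 75.9 and 60.3 CPM in wild-type cells in IL-4, and 68.4, 45.5 and 66.7 CPM in AhR-deficient cells, against 56.3, 61.8, 60.3 and 60.2 CPM in wild-type cells in medium. Neither was called between the genotypes, and Dtx3l, with a log2 value of -0.06 ± 0.13 (SE) in IL-4 and a log2 value of 0.01 ± 0.13 (SE) in medium, was among the few members near 0.

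Of the other effectors, Rsad2 had 15.7, 10.3 and 18.3 CPM in AhR-deficient cells, against 8.67, 7.08, 6.72 and 3.81 CPM in wild-type cells in IL-4. It had 22.2, 14 and 29.9 CPM in AhR-deficient cells, against 10, 10.9, 11.7 and 12.4 CPM in wild-type cells in medium. No AhR-deficient library overlapped wild type in either condition, with a log2 fold change of 1.16 ± 0.27 (SE, adjusted p = 0.0496) in IL-4 and a log2 fold change of 0.97 ± 0.26 (SE, adjusted p = 0.0407) in medium. Isg20 passed in medium (log2 fold change of 0.63 ± 0.13 SE, adjusted p = 0.0165) and gave a log2 fold change of 0.51 ± 0.14 (SE, adjusted p = 0.0709) in IL-4, where its groups did not overlap either. Phf11d, a little-studied PHD finger gene, had 7.66, 4.2 and 11.2 CPM in AhR-deficient cells, against 4.33, 3.23, 2.99 and 2 CPM in wild-type cells in IL-4. It had 8.66, 4.79 and 11.8 CPM in AhR-deficient cells, against 3.89, 3.14, 3.1 and 3.21 CPM in wild-type cells in medium, without overlap, and passed there (log2 fold change of 1.33 ± 0.33 SE, adjusted p = 0.0298).

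Rtp4, a chaperone that also binds viral RNA, had 12.9, 4.67 and 12.4 CPM in AhR-deficient cells, against 5.1, 4.23, 4.05 and 1.8 CPM in wild-type cells in IL-4. It had 18.1, 6.21 and 18.1 CPM in AhR-deficient cells, against 5.43, 6.09, 4.19 and 7.68 CPM in wild-type cells in medium. Numbers 4 and 6 stood well above the rest in both conditions, and number 5 stood within the wild-type range. Rtp4 was not called (log2 fold change of 1.27 ± 0.41 SE, adjusted p = 0.0682 in medium). Trim30a had 93, 67.1 and 107.5 CPM in AhR-deficient cells, against 63.9, 60.8, 61.4 and 44.2 CPM in wild-type cells in IL-4, and 95.9, 63.8 and 116.5 CPM in AhR-deficient cells, against 68.2, 68.1, 59.8 and 66.2 CPM in wild-type cells in medium. Ifi27l2a, the highest member per kilobase, had 108.1, 87.3 and 177.3 CPM in AhR-deficient cells, against 113, 91.9, 70.1 and 47.9 CPM in wild-type cells in IL-4, and 123.4, 91.9 and 201.4 CPM in AhR-deficient cells, against 119.3, 89, 67.5 and 80.1 CPM in wild-type cells in medium, with number 6 the highest in both. Cmpk2, the neighbour of Rsad2 on chromosome 12, was the member most below 0 between the genotypes, with a log2 value of -0.32 ± 0.25 (SE) in IL-4 and a log2 value of -0.27 ± 0.25 (SE) in medium and no call.

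**Figure D5:**
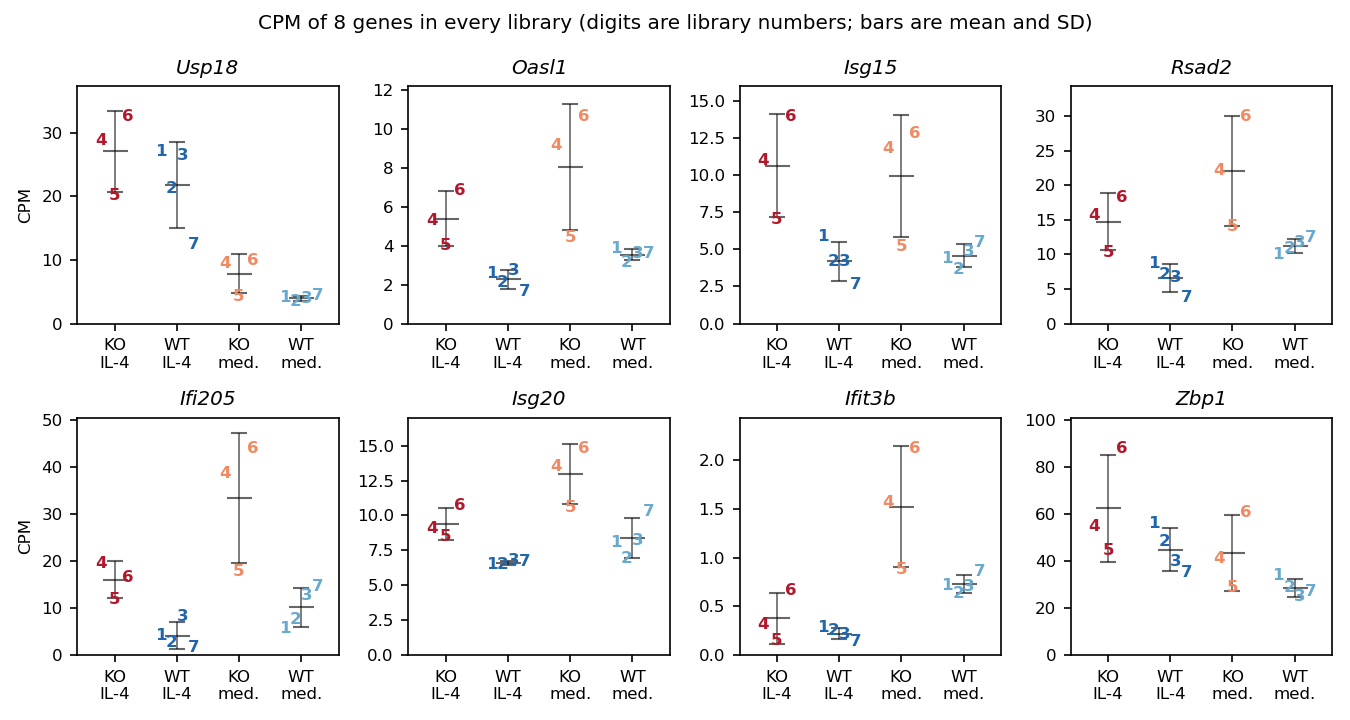
CPM of 8 members in every library (vertical axes start at 0), with digits for the library numbers and bars for mean and SD, in AhR-deficient (KO) and wild-type (WT) cells in IL-4 and in medium. Usp18 lies between 12.5 and 32.5 CPM in IL-4 and between 3.45 and 9.85 CPM in medium, and for Oasl1, Rsad2 and Ifi205 the AhR-deficient libraries lie above the wild-type ones in each condition.

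No interferon-inducible GTPase passed between the genotypes in edgeR. Gbp5 had the largest difference of the family, with 8.06, 5.07 and 5.66 CPM in AhR-deficient cells, against 2.66, 3.28, 5.57 and 1.64 CPM in wild-type cells in IL-4. It had 20.9, 9.02 and 14.6 CPM in AhR-deficient cells, against 2.43, 7.52, 7.02 and 6.59 CPM in wild-type cells in medium, without overlap, which gave a log2 fold change of 1.33 ± 0.39 (SE, adjusted p = 0.0533) there and passed with the numbers as a random block (adjusted p = 0.0356). Gbp2 had 24.5, 16.1 and 27.2 CPM in AhR-deficient cells, against 12.9, 10.7, 21.1 and 10.1 CPM in wild-type cells in IL-4, and 25.1, 17.4 and 29.4 CPM in AhR-deficient cells, against 13.4, 16.9, 19.7 and 11.7 CPM in wild-type cells in medium. Irgm1, a regulator of the other immunity-related GTPases, had 37, 23 and 32 CPM in AhR-deficient cells, against 29.2, 26.9, 26.1 and 21.2 CPM in wild-type cells in IL-4, and 45.7, 22.4 and 39 CPM in AhR-deficient cells, against 24.5, 24.1, 23 and 25.8 CPM in wild-type cells in medium. In medium number 5 was the lowest of all 7 libraries for Irgm1, whereas numbers 4 and 6 were the highest. The family's median difference was 0.33 in IL-4 and 0.55 in medium.

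The last comparison asks whether the response to IL-4 differs between the genotypes. In edgeR 0 of the 44 members passed, against 0.0% of all genes, and 0 members had an unadjusted p under 0.05, against 558 of all genes. DESeq2 called 0 members as well, against 0 genes higher and 3 lower over all genes. With the block 0 passed, and an unadjusted p under 0.05 was found for 2 members, against 1251 of all genes. With the block and without number 7, 0 members passed (smallest adjusted p = 0.0705), against 2 genes higher and 5 lower over all genes. An unadjusted p under 0.05 was then found for 14 members, against 1697 of all genes. The members' median difference of responses was -0.17 in that fit, with 9 of 44 above 0, against -0.017 over all genes. With the block, the result for the members thus depended on number 7. Without the block, leaving out 1 library moved the members' median difference of responses between -0.24 and 0.19, with 0 members passing. The lowest came without AhR-deficient number 5 in medium (2 of 44 above 0). The highest came without AhR-deficient number 5 in IL-4 (35 of 44 above 0). In edgeR without the block, the largest difference of responses was that of Usp18 (log2 value of -0.67 ± 0.41 SE, AhR-deficient minus wild type), with adjusted p = 1.0. Stat2 (log2 value of -0.23 ± 0.14 SE) and Irgm1 (log2 value of -0.31 ± 0.28 SE) were the others among the 3 smallest p-values.

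Genes upstream of the members were read from lists of the pathway. Of 19 interferon ligand genes, 0 had enough counts to be tested. Ifnb1 had 8 counts and Ifnk 9 over the 14 libraries together, Ifng and Ifnab 1 each, and the rest 0. At these depths the ligands' messages were not detectable in a way that allows a comparison.

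Among the 6 receptor genes, 2 were higher and 3 lower with IL-4 in each genotype. Over all genes 15.4% were higher and 14.2% lower in AhR-deficient cells, and 19.4% were higher and 16.5% lower in wild-type cells, which is the background for the counts of each list below. Ifnar1, the signalling chain of the type I receptor, had 342, 332 and 298 CPM in AhR-deficient cells in IL-4, against 526, 510 and 520 CPM in the medium libraries of that genotype. In wild-type cells it had 247, 259, 276 and 276 CPM in IL-4, against 347, 417, 447 and 508 CPM in medium. It fell in both (log2 fold change of -0.68 ± 0.10 SE, adjusted p = 0.0002 in AhR-deficient cells, log2 fold change of -0.70 ± 0.09 SE, adjusted p = 3.3e-05 in wild-type cells). Ifnar2 and Ifnlr1 fell in both as well, and Ifngr1, a chain of the type II receptor, rose in both (log2 fold change of 0.55 ± 0.10 SE, adjusted p = 0.000833 in AhR-deficient cells, log2 fold change of 0.25 ± 0.09 SE, adjusted p = 0.036 in wild-type cells). Between the genotypes, Ifnar2 (log2 fold change of 0.26 ± 0.05 SE, adjusted p = 0.0276) and Il10rb (log2 fold change of 0.30 ± 0.06 SE, adjusted p = 0.0251) were higher in AhR-deficient cells in IL-4, and Ifngr1 was lower in medium (log2 fold change of -0.51 ± 0.10 SE, adjusted p = 0.0106). Of the 14 fits that left out a library or a number, Ifnar2 passed in 5, Il10rb in 6 and Ifngr1 in 12.

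Of the 12 kinases, STATs and interferon regulatory factors, 4 were higher and 1 lower with IL-4 in each genotype. Irf7, the factor that amplifies type I interferon production, had 190, 157 and 298 CPM in AhR-deficient cells in IL-4, against 82.6, 47.6 and 131 CPM in the medium libraries of that genotype. In wild-type cells it had 188, 161, 119 and 130 CPM in IL-4, against 55.7, 36.8, 33.3 and 45.5 CPM in medium. The log2 fold change was 1.30 ± 0.32 (SE, adjusted p = 0.00725) in AhR-deficient cells and 1.81 ± 0.29 (SE, adjusted p = 0.000202) in wild-type cells, and the order of numbers 6, 4 and 5 was that of the members. Irf9, a partner of Stat2 in ISGF3, was lower with IL-4 only with the block. Irf8 was higher in AhR-deficient cells in IL-4 (log2 fold change of 0.40 ± 0.09 SE, adjusted p = 0.0474) and Irf5 in medium (log2 fold change of 0.26 ± 0.07 SE, adjusted p = 0.0352). These calls were not stable, since Irf8 passed in 1 and Irf5 in 4 of the 14 fits that left out a library or a number.

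The inhibitor Socs1, a known target of IL-4 as well as of interferon, changed far more than any member. It had 143, 144 and 153 CPM in AhR-deficient cells in IL-4, against 1.35, 0.902 and 1.14 CPM in the medium libraries of that genotype. In wild-type cells it had 119, 119, 166 and 117 CPM in IL-4, against 0.457, 1.07, 0.751 and 0.43 CPM in medium. Of the 7 inhibitors, 2 were higher and 2 lower with IL-4 in AhR-deficient cells, and 3 were higher and 0 lower in wild-type cells. Ptpn1 was higher in AhR-deficient cells in medium (log2 fold change of 0.44 ± 0.11 SE, adjusted p = 0.0325). It passed in 6 of the 14 fits that left out a library or a number.

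Of the 8 inducers of interferon 7 were tested, and with IL-4 0 were higher and 3 lower in AhR-deficient cells and 0 higher and 2 lower in wild-type cells. Of the 6 secreted targets 4 were tested, and Cxcl10 and Il15 fell with IL-4 in both genotypes. Cxcl10, a chemokine for T cells, had 7.89, 3.55 and 3.76 CPM in AhR-deficient cells in IL-4, against 85.5, 23.5 and 60.7 CPM in the medium libraries of that genotype. In wild-type cells it had 2.26, 1.72, 1.79 and 1.27 CPM in IL-4, against 6.37, 28.2, 16.9 and 32.4 CPM in medium. Between the genotypes in medium, Mavs (log2 fold change of -0.37 ± 0.11 SE, adjusted p = 0.0481) and Il15 (log2 fold change of -0.66 ± 0.17 SE, adjusted p = 0.0334) were lower in AhR-deficient cells. Mavs passed in 3 and Il15 in 4 of the 14 fits that left out a library or a number.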

How the data were processed

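The authors deposited a table of raw read counts with 1 column for each library. The libraries were stranded and paired-end, per the labels, and the submitters' processing notes list FastQC and STAR with mm10, but no versions. How reads were counted, with which annotation and strand setting, is not given in the sources used here. Symbols came from GENCODE M21 (55094 of 55487 identifiers matched with their version). Counts were tested in R 4.3.3 with edgeR 4.0.16 (filterByExpr on the 4 groups, TMM, quasi-likelihood F-test, 14 libraries, 10 residual degrees of freedom), with Benjamini-Hochberg adjustment over 14754 genes. Steps were tested on simulated counts. CPM are TMM-scaled, and the level of the set uses a pseudocount of 1 CPM.

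Total counts were 33432502 to 42885079 per library, and replicates differed by more than counting error. Libraries of the same number paired, since their deviations from the group means correlated at 0.141 to 0.729 over 9415 genes, above 0.1 for all 7 numbers. Each of the other 6 correlated best with its own number, but number 7, at 0.141, correlated at 0.156 with another, so its pairing is weak. The number therefore served as a fixed block for the IL-4 responses (edgeR) and as a random block for the genotype comparisons (limma 3.58.1). Other alternatives were DESeq2 1.42.0, other scaling and filters, only the groups compared, and each library left out. Leaving out both libraries of a number, and the block without number 7, were chosen after seeing the data.

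The members, pathway lists and markers were chosen with earlier results of these data known. Values in every library are given for the 2 highest members of each role, the 3 with the smallest p in each comparison and the 3 most spread within groups. Zbp1 and Gbp5 were chosen after their values were seen. Shared 100-base stretches were counted over GENCODE transcripts. Promoters are those of RefSeq. The values of 1 pathway gene are not reported here.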

Additional observations from a re-analysis of the deposited data

Results flagged for a closer look

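In the wild-type groups of 4 libraries, the highest or lowest library was set against the other 3 by Dixon's ratio. Of 92 values looked at, 4 passed its 95% critical value, and chance alone flags about 1 in 20. Ifih1 had 19.6 CPM in number 7 in IL-4, where the others had 25.7 to 26.6 CPM. Trim30a had 44.2 CPM in number 7 in IL-4, where the others had 60.8 to 63.9 CPM. Gbp3 had 13.6 CPM in number 3 in IL-4, where the others had 8.18 to 8.8 CPM. Phf11d had 3.89 CPM in number 1 in medium, where the others had 3.1 to 3.21 CPM. The AhR-deficient groups have 3 libraries and were not tested in this way.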

How the results depend on the processing

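No called value changed direction, but the members' median IL-4 response, which is near 0, changed sign when single libraries were left out (-0.39 to 0.12 in AhR-deficient cells, -0.27 to 0.04 in wild-type cells). With the replicate block, members called with IL-4 numbered 5 higher and 10 lower in AhR-deficient cells (1 and 3 without it) and 10 higher and 12 lower in wild-type cells (5 and 7 without it), and it moved no other count of members by over 1.5 times. With the block and without number 7, which paired weakly, 8 of 44 members were higher and 17 lower in AhR-deficient cells. Over all genes 20.2% were higher and 19.8% lower there, so the members' lower calls stood above that share. In wild-type cells 12 were higher and 8 lower, and the median was 0.05. There the 10 higher calls with the block were all kept, and so were 8 of the 12 lower calls with the block. Among the pathway genes gained with it were Irf1, Irf8, Irf9, Mavs and Ticam1 in AhR-deficient cells and Irf9, Ticam1, Tmem173 and Socs3 in wild-type cells. With only the 2 groups compared in the model, 5 members were lower with IL-4 in AhR-deficient cells, against 2035 of all 14754 genes. For AhR-deficient against wild type, the model of all groups gave 3 higher members in IL-4 and 6 in medium (141 and 614 of all genes). Without a filter on low counts there were 9 and 13 (253 and 523 of all 27587 genes). With at least 1 CPM in 3 libraries there were 10 in medium (644 of all 12038 genes). DESeq2 gave 9 and 18 (3.42% and 7.06% of all genes). With only the 2 groups compared there were 5 and 0 (319 and 29 of all genes). For the same comparison, leaving out a library, or both libraries of a number, gave 0 to 7 higher calls in IL-4 and 0 to 25 in medium. Over all genes these fits gave 13 to 264 in IL-4 and 37 to 919 in medium. For IL-4 in AhR-deficient cells it gave 1 to 2 higher and 1 to 11 lower calls, and in wild-type cells 1 to 6 higher and 1 to 5 lower. Over all genes these IL-4 fits gave 1645 to 1987 higher and 1375 to 1914 lower in AhR-deficient cells. In wild-type cells they gave 2145 to 2875 higher and 1858 to 2492 lower over all genes. In a window of 150 bases before to 50 after the start, the wider-spaced STAT palindrome was in 8.82% of members with a promoter, against 20.6% in the whole window. The cause was not tested.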
